A study of Mus musculus with 15 samples.

Results

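The myogenic regulators and satellite cell factors examined here are 9 transcription factor genes, chosen by symbol from the deposited table of tag counts. They are the myogenic bHLH factors Myod1, Myog, Myf5 and Myf6, the MADS box factors Mef2a, Mef2c and Mef2d, the paired box factor Pax7 and the homeobox factor Six4. All 9 were among the 13602 gene symbols of the table. The muscle was gastrocnemius, a calf muscle of mainly fast fibres, from 7 male mice lacking Cpt1b in skeletal muscle (Cpt1b skeletal muscle knockout) and from 8 male wild-type (floxed) mice, the controls. Cpt1b is the muscle enzyme that passes long-chain fatty acids into mitochondria. The labels do not name the promoter that drove the deletion, and they count as many mice as libraries. The series text and the titles give chow feeding, for 12 to 14 weeks, while the diet field of every sample in both groups reads 45% HFD. Tags were counted by SAGE, which reads a short stretch towards the 3' end of the RNA. Each transcript molecule gives at most 1 tag, so levels of different genes can be set beside each other without a correction for length. This holds only for transcripts with a site that leaves room for a tag.

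In muscle development Pax7 and Six4 act upstream of Myf5 and Myod1, the myogenic bHLH factors that commit a cell to the muscle lineage. Myog and Myf6 act later, when myoblasts fuse and fibres mature, and all 4 bind DNA as dimers with E proteins. MEF2 proteins do not commit cells to the lineage by themselves. They work with the bHLH factors at muscle genes, and calcium signals release them from class II histone deacetylases. In adult muscle Pax7 marks satellite cells, the resident stem cells, whereas Myod1, Myf6 and the Mef2 genes are also transcribed in fibre nuclei, and Myog rises in denervated fibres.

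The tag is the measured object, so the predicted tags of the members on which the levels below turn are shown here, read from GENCODE M21 transcripts (GRCm38). Each is the 27 bases from the CATG closest to the 3' end of the longest coding transcript that leaves room for a full tag, 5' to 3', with the CATG anchor in capitals.
Myod1: CATGctgtgtagtgcaacaaaaacttt
Myog: CATGagtgccctgacctggacaagtgt
Myf5: CATGagccaggttttattaactatttg
Myf6: CATGatgatggacctttttgaaactgg
Mef2a: CATGtaaaaccgtttggcggcacaagc
Mef2c: CATGaagcttggattgcttcagatggt
Mef2d: CATGcctcagtttagcacatttcctcc
Pax7: CATGaggggtgtgagtgggatgtgtgc
The Myod1 tag lies in the 3' UTR at chr7:46378994-46379020 on the plus strand, 106 bases before the transcript end. The Myog tag is in the 3' UTR at chr1:134292150-134292176 (plus strand), and the Myf5 tag in the 3' UTR at chr10:107482975-107483001 (minus strand). The tags of Mef2a (chr7:67231369-67231395, minus strand), Mef2c (chr13:83666729-83666755, plus strand), Mef2d (chr3:88171466-88171492, plus strand) and Pax7 (chr4:139737224-139737250, minus strand) are in 3' UTRs as well. Myf6 differed from the other 8 members. Its only coding transcript has 2 CATG sites, of which the last stands 5 bases before the end, too close for a tag. The remaining site, printed above, begins in the 5' UTR at chr10:107494679-107494705 (minus strand), 1231 bases from the transcript end. Of 11741 coding genes of the table with a GENCODE transcript, 346 (2.95%) likewise had no full tag at the last CATG of any coding transcript. For Mef2d and Six4 the last CATG of the longest transcript was also too close to the end, 13 and 17 bases, but a shorter coding transcript of each gives a full tag. The Mef2d tag printed above begins 621 bases before the end of the longest transcript, and it may not be the tag that was counted. No tag at the last CATG of a coding transcript of a member was shared with another coding gene. Mef2c has 27 coding transcripts with 7 different such tags and Mef2a 6 with 5, and a count per symbol does not show which of them was sequenced. The labels name neither the anchoring enzyme nor the tag length, so CATG and 27 bases are the usual values of the method and not stated facts.

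**Figure D1:**
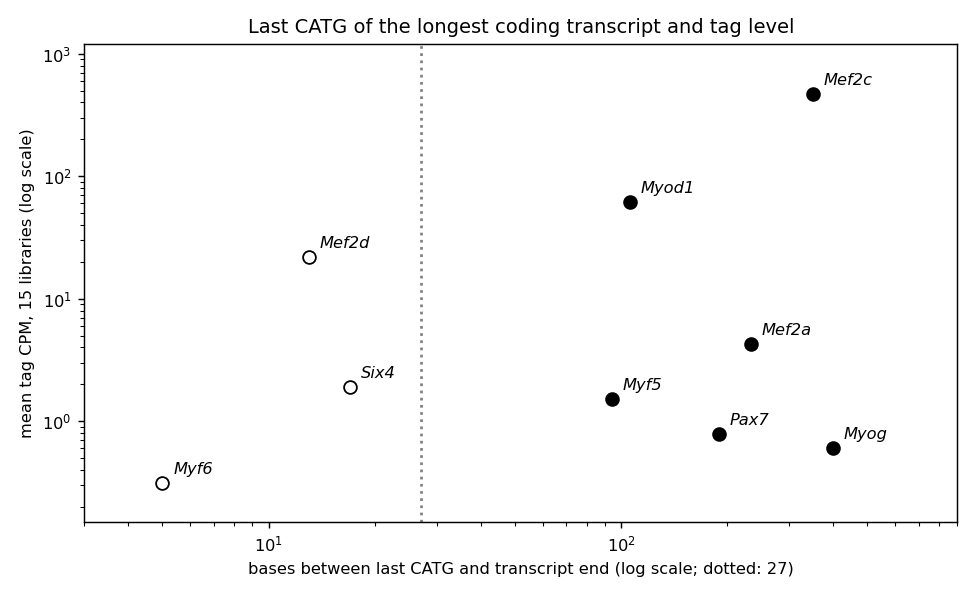
Bases between the last CATG and the transcript end (x axis, log scale, longest coding transcript) against the mean level over 15 libraries (y axis, tag CPM, log scale) for each member; open points have fewer than 27 bases after the site, the dotted line. Myf6, at 5 bases, has the lowest level of the 9 genes, and Mef2d, at 13 bases, stands well above it.

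Library totals ran from 8334436 to 19397255 tags. Levels are CPM, tags scaled to a common library total after TMM adjustment, and differences are log2 fold changes of knockout over control from edgeR. Cpt1b tags were fewer in the knockout libraries, at 3.79 ± 1.64 CPM (SD, n = 7), against 7.64 ± 3.17 CPM in controls (SD, n = 8), and the difference did not pass (edgeR adjusted p 0.103). Which exons were deleted is not in the labels, so a tag at the 3' end need not check the genotype. The 10 myofibre markers summed to between 84770 and 137404 CPM in knockouts, against 99702 to 155534 CPM in controls. Mylpf and Atp2a1, at means of 69572 and 29166 CPM over all libraries, were the largest parts. Of the 10, 1 passed, the fast troponin Tnnt3, with a log2 fold change of -0.65 ± 0.13 (edgeR adjusted p 0.00629). Of all genes tested, 0.497% were called lower and 1.67% higher. At an unadjusted edgeR p under 0.05, Tnnt3 and Atp2a1 were lower and Myh2 was higher, with 0.79 ± 0.34. Of all genes tested, 5.92% were lower and 7.65% higher at that p. The libraries knockout 4 and control 7 stood apart on the leading principal component of all tested genes, which held 44.6% of the variance, with scores of 76.2 and 51.2, and results that rest on them are given with and without them.

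None of the myogenic regulators passed the test between knockout and control muscle. A filter on low counts left 7 of the 9 for testing and removed Myog and Myf6. Of these 7, 0 had an adjusted p under 0.05 by edgeR, against 2.17% of all 11062 genes tested. DESeq2 called 0 of the 9 members, against 3.3% of all genes, and limma-voom 0 of 7, against 2.11%. At an unadjusted p under 0.05 edgeR had 2 of the 7, Mef2d on the higher side and Mef2a on the lower, where 13.6% of all genes tested had such a p, with 7.65% higher in knockouts and 5.92% lower. In all 9 genes the libraries of the groups overlapped, while 1.19% of all genes tested had no overlap. Intervals for the difference are given with each tested gene, since a p above the threshold does not show that levels were equal.

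**Figure D2:**
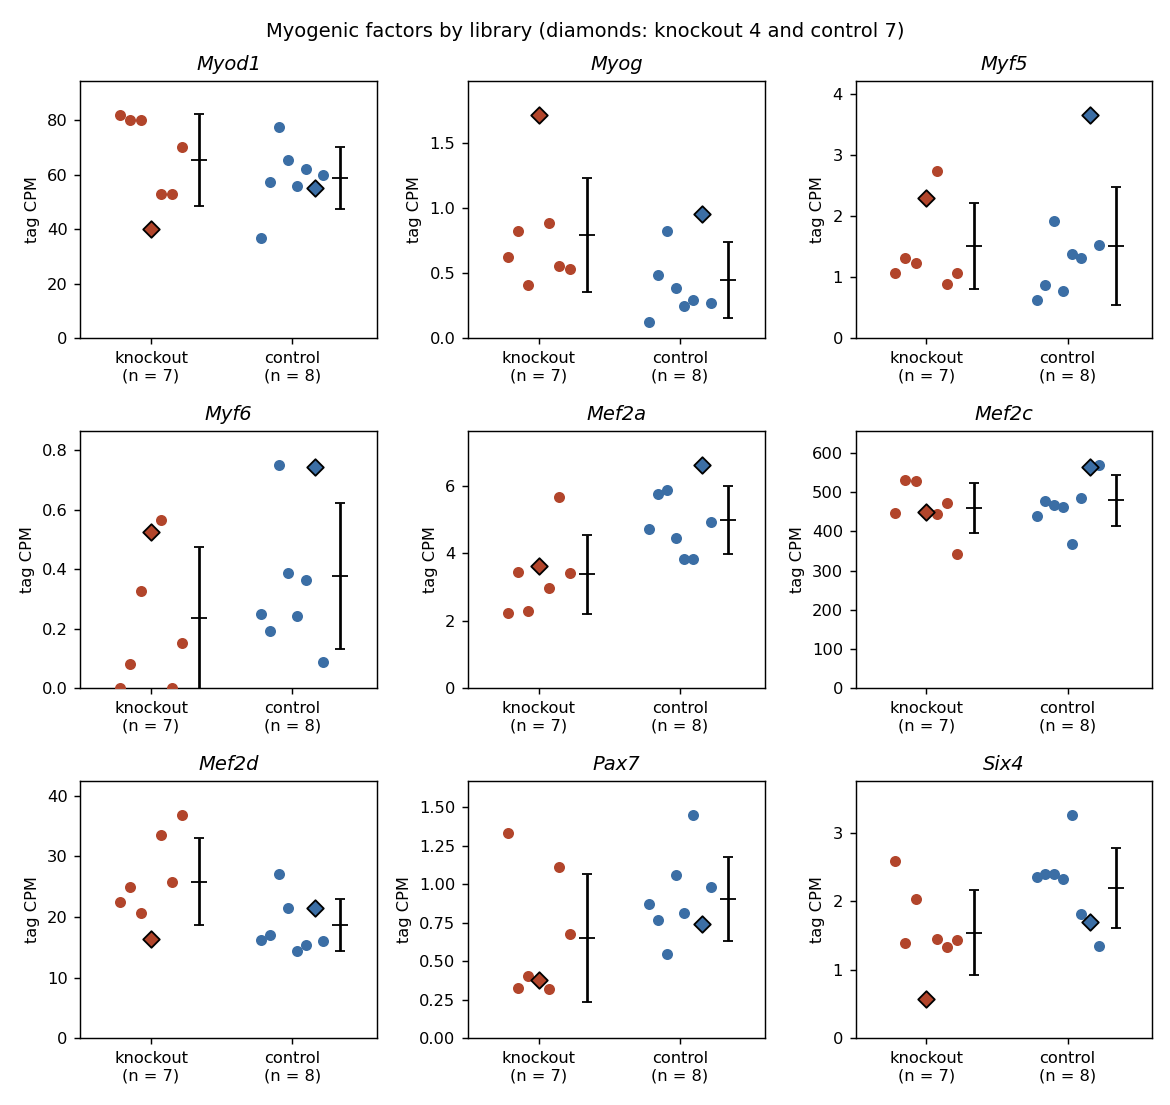
Tag CPM (y axis, from 0, own scale per panel) of each member in the 7 knockout and 8 control libraries; points are libraries, diamonds are knockout 4 and control 7, and bars give the mean ± SD. Knockout points of Mef2a lie below all control points except for knockout 6, at 5.68 CPM, and the groups overlap in every panel.

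Mef2a, a MADS box factor needed for muscle regeneration in mice, lies on chromosome 7 from 67231163 to 67372858. Its lowest, median and highest levels were 2.22, 3.40 and 5.68 CPM in knockouts, against 3.83, 4.82 and 6.63 CPM in controls. Of the 7 knockout libraries, 6 lay below every control and the other, knockout 6, lay among them. The log2 fold change was -0.58 ± 0.20 (SE), with a 95% interval from -0.9994 to -0.16 and an edgeR adjusted p of 0.186. Without knockout 6 it was -0.74 and passed (edgeR adjusted p 0.0407). Over all alternatives and left-out libraries the adjusted p ran from 0.0407 to 0.377. Knockout 6 also had the most Cpt1b tags of the knockout group, 6.46 CPM where the group's median was 3.83 CPM, and whether these values are linked was not tested. Depth was modest, with a mean of 54.3 Mef2a tags per library.

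Mef2d, the Mef2 gene known for a muscle-specific splice form, lies on chromosome 3 from 88142372 to 88172086. It ran from 16.4 CPM through a median of 24.9 CPM to 36.8 CPM in knockouts, and from 14.4 through 16.7 to 27.1 CPM in controls. The 2 highest libraries were knockouts and the 4 lowest were controls, and the ranges overlapped between them. The difference was 0.46 ± 0.18 on the log2 scale (95% interval 0.08 to 0.84), with an edgeR adjusted p of 0.258. Without knockout 4 and control 7 it was 0.57, with an adjusted p of 0.0734, so it did not pass there either.

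Mef2c, the Mef2 gene that maintains sarcomere genes in mouse muscle, was by far the most abundant of the 9 factors. It lies on chromosome 13 from 83504034 to 83667080. Its levels were 343, 449.9 and 531 CPM (lowest, median, highest) in knockouts, against 368, 472 and 569.8 CPM in controls. The groups lay over each other along almost the whole range, with a log2 difference of -0.06 ± 0.12. The 95% interval ran from -0.32 to 0.20, and the edgeR adjusted p was 0.839. With a mean of 6001 tags per library, Mef2c is the member measured with the least counting error.

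Within the Mef2 family Mef2c gave most of the tags, between 89.5% and 95.8% of those of the 3 genes in knockouts and between 93.4% and 96.4% in controls. The ratio of Mef2d to Mef2a tags had a median of 9.07 in knockouts, with a range of 4.53 to 11.2. In controls its median was 3.61, with a range of 2.97 to 4.85. In 5 of the 7 knockout libraries the ratio was above every control. The ratio was formed after the values of both genes were seen, so it is given as a description without a test.

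Myod1, the factor able to turn other cell types into muscle, lies on chromosome 7 from 46376474 to 46379099. It had 39.9, 69.98 and 82.0 CPM (lowest, median, highest) in knockouts, against 36.9, 58.7 and 77.5 CPM in controls. Of the knockouts, 3 libraries (replicates 1, 2 and 3) exceeded the highest control, while knockout 4 lay near the bottom of the control range. The mean was 65.4 ± 16.8 CPM in knockouts (SD, n = 7) and 58.7 ± 11.4 CPM in controls (SD, n = 8). The log2 difference of 0.15 ± 0.17 (95% interval -0.20 to 0.51) did not pass, with an edgeR adjusted p of 0.692. It was 0.25 without knockout 4 (adjusted p 0.601) and 0.080 without control 1 (adjusted p 0.880), each the lowest library of its group, and 0.092, 0.092 and 0.099 without knockout 1, 2 and 3 in turn. Myod1 carried 89.8% to 98.0% of the tags of the 4 bHLH factors in knockouts and 91.1% to 97.7% in controls. These are shares of tags and need not be shares of transcripts, since the last CATG of Myf6 leaves no room for a full tag.

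Myog, the factor of myoblast differentiation that also responds to denervation, gave few tags. The gene lies on chromosome 1 from 134289989 to 134292548. Its levels were 0.407, 0.623 and 1.71 CPM in knockouts, from 5 to 36 tags per library, against 0.124, 0.339 and 0.955 CPM in controls, from 1 to 18 tags. All 7 knockout libraries lay above the control median, 5 controls lay below every knockout, and the remaining 3 controls overlapped the knockouts. Without the low-count filter the edgeR log2 difference was 0.78 ± 0.40, with an adjusted p of 0.435. It was 0.42 without knockout 4, which had the highest level, and 1.06 without control 7, with edgeR adjusted p values of 0.772 and 0.147.

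Myf5, which acts early in the lineage and is transcribed in satellite cells, lies beside Myf6 on chromosome 10 (107482908 to 107486134), with 6718 bases between the genes. It had 0.891, 1.22 and 2.74 CPM in knockouts and 0.621, 1.35 and 3.66 CPM in controls. The controls spread more widely, enclosing the knockouts, and the log2 difference was -0.03 ± 0.35 (95% interval -0.76 to 0.71, edgeR adjusted p 0.978). The sign had no stable direction: without control 7, the highest library, the difference was 0.33, with an adjusted p of 0.508.

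Myf6, the factor of mature fibres (chromosome 10, 107492853 to 107494737), had the lowest level of the set, with its last CATG too close to the transcript end for a tag as described above. It had 0, 0.151 and 0.564 CPM in knockouts, against 0.0894, 0.306 and 0.752 CPM in controls. Knockouts 1 and 6 had 0 tags, which at their depth allows up to 0.267 and 0.334 CPM (3 tags, counting error only), so they cannot be told from the lower controls. Without the filter the log2 difference was -0.62 ± 0.58, with an edgeR adjusted p of 0.673. It ran from -0.99 without knockout 4 to -0.38 without control 7, with no adjusted p under 0.625. With 25 tags over all knockouts and 42 over all controls, no difference was detectable, and how far these tags stand for Myf6 transcripts was not tested.

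The 3 bHLH factors with few tags were high in the same libraries. In knockouts, Myog was highest in replicate 4 and then 5, at 1.71 and 0.886 CPM. Myf5 was highest in replicates 5 and 4, at 2.74 and 2.29 CPM, and Myf6 in the same 2, at 0.564 and 0.524 CPM. In controls the 2 highest libraries for Myog, Myf5 and Myf6 were replicates 7 and 3. These are also the libraries with the highest scores on the leading principal component within their groups, 76.2 and 29.7 for knockouts 4 and 5, and 51.2 and 18.5 for controls 7 and 3. Control 7 and knockout 4 had the largest tag totals as well. The part of depth or of this component in the levels was not tested.

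Pax7, the defining factor of satellite cells, lies on chromosome 4 from 139737062 to 139833528. It had 0.322, 0.407 and 1.33 CPM in knockouts, against 0.547, 0.842 and 1.45 CPM in controls. In knockouts 2, 3, 4 and 5 it lay below every control, while knockouts 1 and 6 lay among the higher controls. The log2 difference was -0.52 ± 0.34 (95% interval -1.23 to 0.19), with an edgeR adjusted p of 0.519. Without knockout 1, the highest of its group, it was -0.79 (adjusted p 0.281). Over the left-out libraries it ran from -0.79 to -0.40, except that without control 1, 4, 6, 7 or 8 Pax7 did not pass the low-count filter and has no value. It rests on 4 to 15 tags per knockout library and 7 to 20 per control library. No difference was called, and in whole muscle a change in satellite cell number and one in Pax7 RNA per cell cannot be told apart.

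Six4, a homeobox factor that acts upstream of the bHLH genes, lies on chromosome 12 from 73099609 to 73113456. It had 0.572, 1.44 and 2.58 CPM in knockouts and 1.34, 2.34 and 3.26 CPM in controls. Of the knockouts, 6 of 7 lay below the control median, and knockout 1 lay above it. The difference of -0.52 ± 0.27 (95% interval -1.08 to 0.04) had an edgeR adjusted p of 0.403. Without knockout 4, the lowest library, it was -0.36, with an adjusted p of 0.608.

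In order of level the factors ran Mef2c (mean over all libraries 469.7 CPM), Myod1 (61.9), Mef2d (21.998), Mef2a (4.24), Six4 (1.89), Myf5 (1.51), Pax7 (0.787), Myog (0.607) and Myf6 (0.311). The steps from Mef2c to Myod1, from Myod1 to Mef2d and from Mef2d to Mef2a held in each of the 15 libraries. Mef2a exceeded Six4 in 14 of 15. Below that the neighbours did not separate, since Six4 exceeded Myf5 in 11 of 15 libraries, Myf5 exceeded Pax7 in 10, Pax7 exceeded Myog in 9, and Myog exceeded Myf6 in 11. Pax7 lay above Myog in 3 of 7 knockouts and in 6 of 8 controls. The last place is that of the Myf6 tags and need not be that of its transcripts, since its last CATG leaves no room for a full tag.

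**Figure D3:**
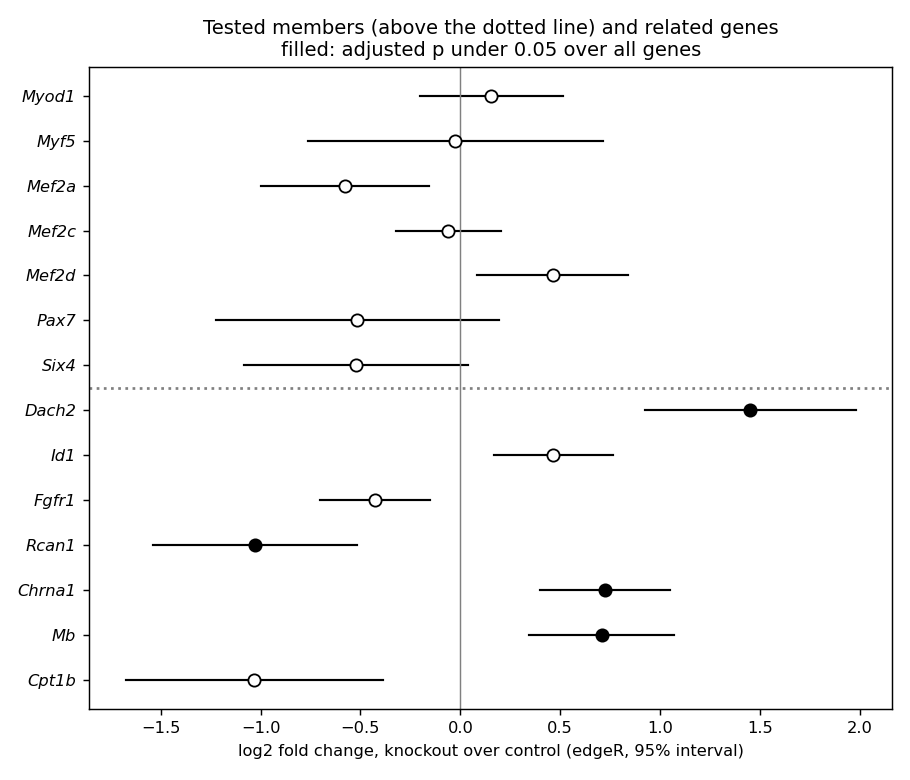
Log2 fold change of knockout over control (x axis, edgeR) with its 95% interval for the 7 tested members, above the dotted line, and for related genes and Cpt1b below it; filled points passed an adjusted p of 0.05 over all genes. No member is filled, the interval of Mef2a ends at -0.16 and that of Mef2d starts at 0.08, and Dach2 has the largest change at 1.45.

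Around the members, Dach2, which is in both the Six4 network and the denervation-responsive list, passed the test. So did Chrna1, Rcan1 and Mb from the lists below. Of 8 tested genes of the Six4 family with its Eya and Dach partners 1 rose and none fell, where 1.67% of all genes tested were called higher and 0.497% lower. The gene was Dach2, a Dachshund-family co-repressor that in mouse muscle represses Myog. Dach2 had 5.13, 9.68 and 14.0 CPM (lowest, median, highest) in knockouts, against 2.22, 2.72 and 6.10 CPM in controls. The ranges overlapped, with all 7 knockouts above the control median. The log2 fold change was 1.45 ± 0.25, with an edgeR adjusted p of 0.00271, and it passed without each single library in turn, with adjusted p values from 0.000251 to 0.00875.

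Of 16 denervation-responsive genes tested, 2 rose and none fell, namely Dach2 and Chrna1, against 1.67% higher and 0.497% lower of all genes tested. The median log2 fold change of the 16 was 0.11, where that of all genes tested was 0.00. Chrna1, the acetylcholine receptor subunit whose promoter is bound by myogenic bHLH factors, had 88.6, 145.8 and 174 CPM in knockouts, against 63.9, 80.97 and 95.6 CPM in controls. All 7 knockouts exceeded the control median. The log2 fold change of 0.72 ± 0.16 passed with an edgeR adjusted p of 0.0145, and without each single library with adjusted p values from 0.00438 to 0.0459. Dach2 falls and Chrna1 rises in denervated mouse muscle, as background, whereas both were higher here.

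E proteins, Id proteins and other bHLH partners or inhibitors did not pass. Of 14 tested, edgeR called 0, against 2.17% of all genes tested, and the median log2 fold change was -0.16. At an unadjusted p under 0.05, 1 was higher and 4 were lower, against 7.65% higher and 5.92% lower of all genes tested. The smallest p belonged to Id1, an inhibitor that captures E proteins, at 16.6 ± 2.08 CPM in knockouts and 12.0 ± 2.55 CPM in controls (SD, n = 7 and n = 8). All 7 knockouts lay above the control median, and the log2 difference of 0.47 ± 0.14 had an edgeR adjusted p of 0.110. Twist2, a bHLH repressor of MyoD activity, had 1.93 ± 0.625 CPM in knockouts and 3.32 ± 1.13 CPM in controls, a log2 difference of -0.75 ± 0.27 (edgeR adjusted p 0.200). DESeq2 and limma-voom called 0 of this list as well. Of the E proteins, the dimer partners, Tcf4 differed by 0.06 ± 0.12, Tcf12 by 0.04 ± 0.20 and Tcf3 by -0.09 ± 0.16 on the log2 scale, and none passed.

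Of 25 tested regulators and cofactors of Mef2, 1 fell and none rose, with a median of 0.09, against 0.497% lower and 1.67% higher of all genes tested. The gene was Rcan1, an inhibitor of the phosphatase calcineurin and itself induced by calcineurin signals. It had 76.5, 111 and 168 CPM in knockouts and 117, 235.5 and 429 CPM in controls, with all 7 knockouts below the control median. The log2 fold change was -1.03 ± 0.24 (edgeR adjusted p 0.0305). Left out singly, knockouts 2, 4, 5 and 7 and controls 1, 2, 4 and 6 each ended the call, with adjusted p values up to 0.0757, and the fold change stayed between -1.13 and -0.87. Of the class II deacetylases, Hdac4, named for its role, had a log2 difference of 0.17 ± 0.15. Others of this class in the list were Hdac5 with -0.41 ± 0.17, Hdac7 with 0.13 ± 0.17 and Hdac9 with -0.24 ± 0.24, and none passed. At an unadjusted p under 0.05 by edgeR, 1 gene of the list was higher and 3 were lower, Rcan1 and Hdac5 among them. Of all genes tested, 7.65% were higher and 5.92% lower at that p.

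Of 22 known Mef2 target genes of muscle 1 rose and none fell, against 1.67% higher and 0.497% lower of all genes tested, and their median was 0.00. The gene was Mb, the oxygen store myoglobin, at 5048 ± 1373 CPM in knockouts and 3093 ± 653 CPM in controls (SD, n = 7 and n = 8). Its log2 fold change of 0.71 ± 0.17 had an edgeR adjusted p of 0.0376. The call ended without any single one of knockouts 2, 3, 4 and 7 and controls 1, 2, 4, 5, 6 and 8, with adjusted p values up to 0.110. Without control 7 the count in this list was 4, of which 2 were higher and 2 lower. Of 16 differentiation and fusion genes edgeR called 0, as did DESeq2 and limma-voom, with 1 gene on each side at an unadjusted p under 0.05, where 7.65% of all genes tested were higher and 5.92% lower. These were Cdkn1a, the cell cycle inhibitor induced by MyoD, with a log2 difference of 0.52 ± 0.23, and Myof, a membrane fusion protein of myoblasts, with -0.44 ± 0.17.

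Other markers of satellite cells likewise gave no call by edgeR. Of 24 listed, 18 were tested and 0 passed, against 2.17% of all genes tested, while DESeq2 called 1 lower, against 3.3% called in either direction, and limma-voom 0. At an unadjusted p under 0.05, 1 was higher and 4 were lower, against 7.65% higher and 5.92% lower of all genes tested. Of the 18, 13 had a negative fold change and the median was -0.21. Fgfr1, a growth factor receptor of satellite cells that other cells also carry, had 41.1 ± 7.80 CPM in knockouts and 55.4 ± 7.12 CPM in controls (SD, n = 7 and n = 8). Its log2 difference was -0.43 ± 0.13, with an edgeR adjusted p of 0.112. Dll1, a Notch ligand, differed by -0.58 ± 0.24 (adjusted p 0.298), and Cdh15, the M-cadherin of satellite cells, by -0.18 ± 0.19 (adjusted p 0.686). The marker that was higher at an unadjusted p under 0.05 was Spry1, with 0.48 ± 0.22 (edgeR adjusted p 0.342). In all, 5 of the 18 had a positive fold change. The summed level of the list ran from 1868 to 2676 CPM in knockouts and from 2333 to 3389 CPM in controls. Most of it was Des, which fibres also express, at a mean of 2067 CPM over all libraries, so the sum does not measure satellite cells.

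Markers of other cell types in the muscle gave these values beside Pax7 and Myf5. Of 8 fibroblast markers none passed by edgeR and 3 were lower at an unadjusted p under 0.05, against 5.92% of all genes tested. Their summed level was 1644 to 3579 CPM in knockouts and 2598 to 4688 CPM in controls, led by Col1a1 with a log2 difference of -1.03 ± 0.30 (edgeR adjusted p 0.0863), followed by Col1a2 with -0.64 ± 0.21 (adjusted p 0.139). At the same unadjusted p, 2 of 8 macrophage markers were lower, Csf1r with -0.52 ± 0.24 and Lyz2 with -0.81 ± 0.38, as was 1 of 5 smooth muscle and pericyte markers, Rgs5 with -0.33 ± 0.16. None of the tested endothelial, Schwann cell or adipocyte markers had such a p. Fold changes were positive for 2 of 8 fibroblast, 1 of 8 macrophage and 2 of 5 smooth muscle and pericyte markers. Acta2, of the last list, had 0.46 ± 0.33. Macrophage markers summed to 48.9 to 84.5 CPM in knockouts and 56.5 to 115 CPM in controls, and endothelial markers to 197 to 296 CPM and 206 to 322 CPM in the same order. Schwann cell markers ran from 41.3 to 124 CPM in knockouts and 42.4 to 126 CPM in controls, smooth muscle and pericyte markers from 295 to 507 CPM and 287 to 582.5 CPM, and adipocyte markers from 905 to 1642 CPM and 859 to 1163 CPM. Most of the adipocyte sum was Fabp4, at a mean of 1022 CPM over all libraries. On the log2 scale Fabp4 differed by 0.22 ± 0.13 and Adipoq by 0.005 ± 0.32. Of these 5 lists edgeR called 0 genes. The part of these cells in the levels of Pax7, Myf5 or the satellite cell list was not tested.

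**Figure D4:**
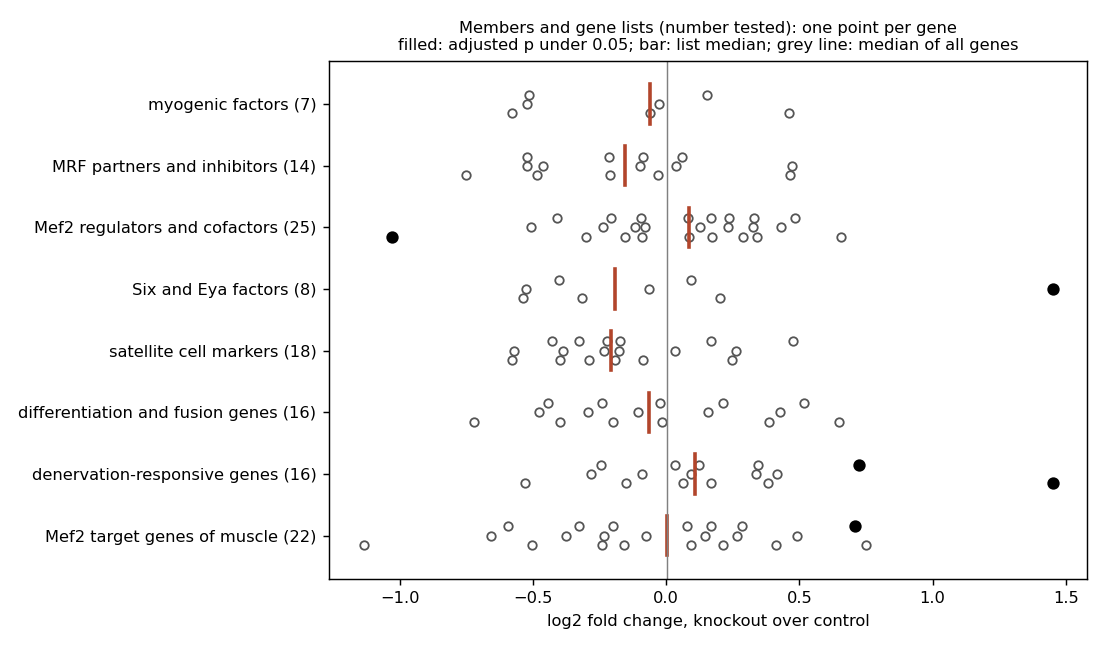
Log2 fold change of knockout over control (x axis) of every tested gene of each list, with the number tested in brackets; filled points passed an adjusted p of 0.05, the bar is the list median and the grey line the median of all genes. The tested myogenic factors centre on -0.06 with no filled point, and Dach2 appears in both the list of Six4 relatives and the denervation list.

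Among 5480 other genes with a mean of at least 10 CPM, those whose level followed Mef2a most closely over the 15 libraries were Igsf8, 3425401B19Rik and Ywhab, with Spearman rank correlations of 0.889, 0.807 and 0.804. Within the groups, after subtraction of the group means, Pearson's r with Mef2a was 0.662 for Igsf8, 0.403 for 3425401B19Rik and 0.556 for Ywhab. The genes closest to Mef2c were Gnao1, G0s2 and Zfhx4, with rank correlations of 0.739, 0.718 and 0.611. They are the most alike of all genes compared in the same libraries, so the coefficients describe these samples and carry no test.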

How the data were processed

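Per the labels' protocols, total RNA from gastrocnemius was made into barcoded SOLiD SAGE libraries. The authors deposited raw tag counts per gene symbol and a second table with signal values, the counts divided by 1 size factor per library, which was not used. The submitters' processing notes name DESeq2 and the builds mm10 and GRCm38.p1, while aligner and tag counter are not given in the sources used here. Empty lines of the table, 360 in all, were dropped. Group differences in counts came from edgeR 4.0.16 under R 4.3.3 (quasi-likelihood, robust, TMM, filterByExpr with a minimum count of 10, group as the only term, Benjamini-Hochberg over 11062 genes, threshold 0.05). DESeq2 1.42.0 and limma 3.58.1 (voom) were alternatives, beside RLE scaling, library totals alone, no filter, a replicate block, and left-out libraries. The tests were tried on simulated data. The SE of a log2 fold change is its size over the root of the F statistic. The separate mice are the replicates.

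Members and lists were chosen with earlier results of these data known. Named genes are all members, up to 6 called genes of each list or else the 2 with the smallest p, and for Mef2a (smallest p) and Mef2c (highest level) the 3 most alike genes. Tcf3, Tcf4, Tcf12, Hdac4, Hdac5, Hdac7, Hdac9, Cdh15, Spry1, Des, Mylpf, Atp2a1, Myh2 and Adipoq fall outside this rule. They were added after values were seen. The 2 genes picked for the endothelial and Schwann cell markers, and the second for adipocyte markers, are given only within their lists. Positions and tags come from GENCODE M21. A gene of these lists is not reported here.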

Additional observations from a re-analysis of the deposited data

Results flagged for a closer look

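A library far from the others of its group was sought in 30 groups of values (15 genes, knockout and control), where chance alone flags about 1 in 20, and 3 were found. Myog stood at 1.71 CPM in knockout 4, where the next knockout had 0.886 CPM. Mef2a stood at 5.68 CPM in knockout 6, where the next knockout had 3.62 CPM. Myf5 stood at 3.66 CPM in control 7, where the next control had 1.91 CPM.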

How the results depend on the processing

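The count of all genes called was 240 and became 449 with DESeq2, 117 with the replicate block and 403 without knockout replicate 4 and control replicate 7 together; without 1 library it ran from 161 to 465 (465 without control replicate 7). The count of myogenic factors stayed at 0 except without knockout replicate 6, where Mef2a made it 1 (range 0 to 1). With 1 library left out the counts ran from 0 to 1 for the bHLH partners, the Mef2 regulators and the satellite cell markers (1 without knockout 4). Without control 3, 1 partner was called higher, and without control 7, 1 was called lower. For the Mef2 targets the counts ran from 0 to 4. Without knockout 4 and control 7 together they were 1 for the partners, 1 for the satellite cell markers and 3 for the Mef2 targets. DESeq2 gave 1 satellite cell marker and 3 Mef2 targets, and library totals alone gave 0 Mef2 targets. The replicate block gave 0 Mef2 regulators, 0 Mef2 targets and 1 denervation-responsive gene. Its edgeR adjusted p values were 0.190 for Chrna1, 0.0577 for Rcan1, 0.196 for Mb and 0.0984 for Tnnt3, while Dach2 passed at 0.0371. Correlations of same-numbered libraries ran from -0.45 to 0.31, and 1 of 7 knockouts correlated best with its own number. These values do not settle whether the numbers pair the mice, since larger differences between libraries could hide a small pair effect. The log2 difference of Myf5 turned positive with library totals alone (0.00070), the block (0.085), limma-voom (0.042) and without both libraries (0.17), and ran from -0.22 to 0.33 without 1 library; that of Mef2c ran from -0.11 to 0.00057. The causes were not tested. Counting noise limits Myog, Myf6 and Pax7, of which Myog and Myf6 did not pass the low-count filter and were fitted without it. Pax7 did not pass it in the fits without control 1, 4, 6, 7 or 8, nor in the one without knockout 4 and control 7 together.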
